A study of Mus musculus with 4 samples.

Results

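Semaphorins, neuropilins and plexins form a guidance system whose ligands and receptors were followed here through the birth and maturation of granule cells in the adult mouse dentate gyrus. The members were 10 listed genes out of the 45706 features counted: 5 semaphorins (Sema3a, Sema3c, Sema3e, Sema5a and Sema6d), 2 neuropilins (Nrp1 and Nrp2) and 3 plexins (Plxna2, Plxna4 and Plxnd1). They were taken by name, and all 10 had a feature in the count files. Nuclei came from mice with a tamoxifen-inducible Cre and the CAG floxStop-Sun1/sfGFP reporter on a C57Bl/6J background, 6 to 8 weeks of age, and all groups received tamoxifen. The drug activates Cre in the cells that make it, so that these cells and their progeny carry a green nuclear envelope by which nuclei were sorted. Nuclear RNA was counted by droplet sequencing in 4 libraries, named w1, w2, w4 and w8 for the weeks since induction (1, 2, 4 and 8). Each was a single pool of 4 left dentate gyri from mice of both sexes. Only cells in which Cre had been active and their descendants, with other cells that the sort let through, could be measured.

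Secreted class 3 semaphorins such as Sema3a and Sema3c bind neuropilins, which have no signalling domain of their own and pair with a class A plexin to pass the signal on. Sema3e is an exception, since it can bind plexin D1 directly. Sema5a and Sema6d stay in the membrane, and both are known as ligands of class A plexins. In the hippocampus this family is known for steering mossy fibres, shaping dendrites and limiting synapses.

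The authors sorted 14367 of the 17046 barcodes into 13 clusters: astrocytes (Astro), radial glia-like stem cells (RGL), progenitors (NPC), neuroblasts (NB1 and NB2), immature (GCimm1 and GCimm2), young (GCyoung) and mature granule cells (GCmat1 and GCmat2), pericytes (Peri), oligodendrocytes (Oligo) and their precursors (OPC). The kept nuclei held 13227971 to 28595331 UMIs per library, with a median of 4369 to 7703.5 UMIs per nucleus, and the libraries shared 22 barcodes. The pools also differed in sex, by the UMIs of Y-linked genes against those of Xist and Tsix: the w1 pool had 1628 male and 788 female calls, and w8 had 2650 male and 419 female. The majority was female in the other pools, with 2729 of these calls against 1278 male for w2, and 2995 against 659 male for w4. Cluster labels were held against marker genes: all 6 progenitor markers were highest in NPC and 5 of 6 neuroblast markers in NB1 or NB2, whereas 3 of 6 stem cell markers were highest in RGL. From RGL to GCmat2, the summed CPM (UMIs of a gene per 1000000 UMIs) of 3 microglia markers lay between 27.4 and 53.3. That of 3 endothelial markers lay between 1.10 and 50.4, with the highest value in NPC, and that of 3 Cajal-Retzius markers between 1.203 and 67.9, also highest in NPC (mostly Reln). Interneuron markers summed to 16.2 to 94.0, highest in GCimm1 (mostly Gad1), and mossy cell markers to 7.74 to 393, highest in NB2, where Calb2, also a neuroblast marker, made up nearly all. The part of such RNA in the results was not tested. Of the markers listed for pericytes or leptomeningeal cells, Slc6a13 (648 CPM), Tbx18 (313) and Pdgfrb (101) were highest in Peri, where Rgs5 had no UMI. Peri also held 202 CPM of Pdgfra, listed as an OPC marker. The label is the authors', and pericytes below means this cluster, whose kind of cell was not tested.

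A level is given as CPM, over all UMIs of the same nuclei, with an exact Poisson interval at 95% where it is quoted for pooled nuclei. Values by library are for libraries with at least 10 nuclei of the cluster. Intervals cover counting error only. Differences between neighbouring clusters were tested with edgeR on UMIs summed per library and cluster (29 sums of at least 10 nuclei), with library as a term. The fit scaled the sums by TMM factors, which CPM does not carry, so fitted changes and ratios of CPM can differ in size. Calls needed an adjusted p (Benjamini-Hochberg, over 13513 genes) no larger than 0.05 together with a 1.5-fold difference or more. The spread is that between sums of pools and not between animals, and the authors made the clusters from expression values of the same nuclei, so these p-values are not independent of the clustering. Plxnd1 did not pass the filter on low counts, which left 9 of 10 members in the test.

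The members are long genes with little exonic sequence. On GRCm38 (GENCODE M21) Sema3a (ENSMUSG00000028883) spans chr5:13125414-13602565, Sema3e (ENSMUSG00000063531) chr5:14025276-14256689 and Sema3c (ENSMUSG00000028780) chr5:17574281-17730268, all on the plus strand, so the 3 class 3 ligands lie within 4.61 Mb of each other. Sema5a (ENSMUSG00000022231) lies at chr15:32244810-32696341 and Sema6d (ENSMUSG00000027200) at chr2:124089969-124667770. Nrp1 (ENSMUSG00000025810) lies at chr8:128358604-128503363 and Nrp2 (ENSMUSG00000025969) at chr1:62703285-62818695. Of the plexins, Plxna2 (ENSMUSG00000026640) lies at chr1:194618218-194816869, Plxna4 (ENSMUSG00000029765) on the minus strand at chr6:32144268-32588192 and Plxnd1 (ENSMUSG00000030123) on the minus strand at chr6:115954811-115995005. Plxnd1, the shortest, covers 40195 bases against 115411 to 577802 for the others, and 18.2% of it is exonic against 1.83 to 10.3%. UMIs from introns were counted, so levels are compared within a gene and not between genes. Antisense genes overlap Plxna4 and Sema3e, with 7008 UMIs for Plxna4os3 against 149612 for Plxna4 and 1363 for Gm4128 against 11996 for Sema3e. No strand setting of the counting is given in the sources used here.

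Promoter windows (RefSeq, GRCm38.p6, 250 bases before and 50 bases after a start site) were found for 9 members, and none for Plxna4. Those of the 3 neighbours on chromosome 5 and of the neuropilins are shown. These 5 genes are the secreted ligands of the group and the neuropilins, which bind Sema3a and Sema3c. The Sema3a window lies well inside the annotated gene, at an internal start site, whereas those of Sema3e and Sema3c lie near the annotated start. Capitals mark any match, on either strand, to AACAAT or ACAAAG (Sox factors), CAGATG or CAGCTG (E-boxes) or TGTTTAC (Fox factors).
Sema3a, chr5:13396534-13396833, plus strand: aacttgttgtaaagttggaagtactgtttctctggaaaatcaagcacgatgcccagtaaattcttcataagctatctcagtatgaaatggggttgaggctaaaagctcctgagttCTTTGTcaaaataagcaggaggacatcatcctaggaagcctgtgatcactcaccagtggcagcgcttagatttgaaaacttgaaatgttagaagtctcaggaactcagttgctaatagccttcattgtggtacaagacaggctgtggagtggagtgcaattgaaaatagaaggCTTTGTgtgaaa
Sema3e, chr5:14025026-14025325, plus strand: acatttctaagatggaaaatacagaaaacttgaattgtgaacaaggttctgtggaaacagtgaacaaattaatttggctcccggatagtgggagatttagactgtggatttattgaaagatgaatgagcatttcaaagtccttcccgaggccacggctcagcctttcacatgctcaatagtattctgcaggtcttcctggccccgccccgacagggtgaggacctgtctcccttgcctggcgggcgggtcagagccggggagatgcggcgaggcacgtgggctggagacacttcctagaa
Sema3c, chr5:17574566-17574865, plus strand: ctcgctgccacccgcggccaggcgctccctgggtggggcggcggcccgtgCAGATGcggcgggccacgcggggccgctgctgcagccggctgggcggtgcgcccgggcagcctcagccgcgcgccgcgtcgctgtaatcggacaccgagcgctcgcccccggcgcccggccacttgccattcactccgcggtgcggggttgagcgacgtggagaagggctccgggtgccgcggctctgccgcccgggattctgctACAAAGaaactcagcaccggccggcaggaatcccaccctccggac
Nrp1, chr8:128358823-128359122, plus strand: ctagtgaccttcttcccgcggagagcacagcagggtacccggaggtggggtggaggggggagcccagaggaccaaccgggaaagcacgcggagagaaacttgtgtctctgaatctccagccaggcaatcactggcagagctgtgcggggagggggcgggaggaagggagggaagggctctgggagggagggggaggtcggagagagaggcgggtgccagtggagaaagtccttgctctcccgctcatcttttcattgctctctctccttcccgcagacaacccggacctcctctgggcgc
Nrp2, chr1:62703067-62703366, plus strand: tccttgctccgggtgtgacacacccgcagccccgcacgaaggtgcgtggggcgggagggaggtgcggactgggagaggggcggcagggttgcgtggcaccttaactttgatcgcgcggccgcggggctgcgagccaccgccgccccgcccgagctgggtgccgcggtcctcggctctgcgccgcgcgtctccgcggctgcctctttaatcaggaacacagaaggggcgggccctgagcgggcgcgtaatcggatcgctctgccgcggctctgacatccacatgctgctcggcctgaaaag
These windows of the 3 ligands differed in base composition, with 41.3% G and C at the internal site of Sema3a, 50.7% for Sema3e and 75.7% for Sema3c, where the median of 32851 promoter windows was 52.7%. The Sema3a window held ACAAAG at 2 places, both on the minus strand (as CTTTGT, from bases 116 and 289). The Sema3c window held CAGATG from base 51 and ACAAAG from base 256, while those of Sema3e, Nrp1 and Nrp2 held none of the 5 motifs. Among all windows 18.7% held ACAAAG, 17.2% CAGATG, 16.3% CAGCTG, 10.7% AACAAT and 3.65% TGTTTAC.

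Sema3c, a secreted ligand, rose and fell steeply along the lineage. In w1, w2 and w4 it stood at 922, 825 and 809 CPM in NB1, and in NB2 at 1835, 1844 and 1729. GCimm1 followed with 1653, 1450 and 1270 in w1, w2 and w4, and GCimm2 with 685, 535 and 540 in w2, w4 and w8. In GCyoung it was 14.0 in w4 and 18.1 in w8. Every library of the neuroblast and immature clusters was thus far above every library of young and mature granule cells, where GCmat1 reached at most 5.82. Pooled, the level was 44.1-fold lower in GCyoung than in GCimm2 (95% counting interval 38.8 to 50.2). Most GCimm2 nuclei came from w2 and most GCyoung nuclei from w4, and within libraries the difference was smaller: GCyoung held 0.0262 of the GCimm2 level in w4 and 0.0336 in w8. The share of nuclei with a UMI was 96.5% in GCimm1 and 8.5% in GCyoung, against 1 of 45 oligodendrocytes, at medians of 5045.5, 7458 and 4801 UMIs per nucleus.

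The rise of Sema3c began early. Pooled, RGL held 15.3 CPM (12.3 to 18.7), an interval that overlapped that of OPC (1.61 to 15.2), and NPC held 85.4 (67.5 to 107). By library, RGL held 5.22, 31.5, 9.57 and 3.19 in order of week, so the w2 pool stood above the others. In NPC the values were 54.1, 105 and 223 in w1, w2 and w4. In the edgeR fit Sema3c rose from RGL to NPC by 2.36 ± 0.39 (SE, log2; adjusted p = 2.6e-06) and from NPC to NB1 by 3.48 ± 0.32 (adjusted p = 2.46e-13). It rose again from NB1 to NB2 by 1.04 ± 0.23 (adjusted p = 0.00289) and from NB1 to GCimm1 by 0.89 ± 0.23 (adjusted p = 0.00329). It then fell by 1.12 ± 0.25 from GCimm1 to GCimm2 (adjusted p = 0.000993), fell by 4.84 ± 0.36 to GCyoung (adjusted p = 1.07e-15) and fell by 1.55 ± 0.39 to GCmat1 (adjusted p = 0.0101). With DESeq2 the changes were of like size but not called: 1.13 from NB1 to NB2 (adjusted p = 0.369), 0.92 from NB1 to GCimm1 (adjusted p = 0.254), -1.23 from GCimm1 to GCimm2 (adjusted p = 0.134) and -1.69 from GCyoung to GCmat1 (adjusted p = 0.162). Without w8 the last fall was 1.35 (edgeR adjusted p = 0.384), and with thinning 1.56 (edgeR adjusted p = 0.0543). Limma called none of the changes that DESeq2 missed. In edgeR with female nuclei alone, NB1 to NB2 (0.84, adjusted p = 0.351) and GCyoung to GCmat1 (-1.48, adjusted p = 0.084) were not called. With male nuclei alone, GCimm1 to GCimm2 (-0.81, adjusted p = 0.0766) and GCyoung to GCmat1 (-1.04, adjusted p = 0.599) were not called.

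Sema3e, a class 3 ligand of plexin D1, was found from RGL on, with more in NPC and GCimm1 than in RGL or NB1 of the same libraries. RGL held 90.5, 84.6, 82.5 and 82.9 CPM over the 4 weeks, a narrow range. No UMI was found in the 67 astrocyte nuclei, which allows up to 8.95 CPM (3 counts), so that the pooled RGL level was at least 9.63-fold higher. NPC held 327, 228 and 249 CPM in w1, w2 and w4, and all 3 values exceeded those of RGL. NB1 was lower in each of these libraries, at 182, 175 and 132, and GCimm1 higher, at 344, 281 and 378. GCimm2 held 219, 311 and 340 in w2, w4 and w8. GCyoung fell to 79.4 in w4 and 107 in w8, and GCmat1 to 64.0 in w1, 25.5 in w4 and 31.3 in w8, without overlap with GCimm2.

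The rises of Sema3e from RGL to NPC (1.38 ± 0.20, adjusted p = 2.09e-07) and from NB1 to GCimm1 (1.10 ± 0.17, adjusted p = 1.18e-06) passed the edgeR test, whereas the lower NB1 value did not (-0.44 ± 0.20, adjusted p = 0.0863). It fell by 1.38 ± 0.21 from GCimm2 to GCyoung (adjusted p = 7.09e-07) and by 1.53 ± 0.21 from GCyoung to GCmat1 (adjusted p = 8.52e-07). Without w4 the first of these falls was 1.08 (edgeR adjusted p = 0.0507). OPC held 127 to 176 CPM over the 4 libraries, while pericytes held no UMI. Among GCimm1, NPC, GCimm2, NB2, GCmat2 and NB1 each range over libraries overlapped that of its neighbour in the order of levels, while NB1 lay below GCimm1, NPC and GCimm2 in all libraries.

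Sema3a, a secreted ligand known as a repellent of axons, was scarce, with 3505 UMIs in all nuclei. Its highest level lay outside the lineage, in the cluster labelled pericytes (163 CPM in w1 and 495 in w2). Within the lineage it was highest in NB1, at 126, 112 and 126 in w1, w2 and w4. NB2 held 80.8, 90.3 and 38.4, and GCimm1 151, 62.0 and 68.3, so the w1 pool stood apart in GCimm1. GCimm2 held 23.2, 19.9 and 6.66 in w2, w4 and w8, GCyoung 10.96 and 4.18 in w4 and w8, and GCmat1 between 0 and 3.52.

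RGL held 53.1, 37.1, 58.2 and 35.1 CPM of Sema3a in w1, w2, w4 and w8, and NPC 24.1, 12.3 and 39.3 in w1, w2 and w4, lower than RGL of the same library. The 2 NPC nuclei of w8, too few for the fit, held 20 of the 39 UMIs of that cluster, and with them the pooled level was 42.7 in NPC (30.4 to 58.4) and 47.7 in RGL (42.4 to 53.5). In edgeR Sema3a fell by 1.54 ± 0.41 from RGL to NPC (adjusted p = 0.00254), although the change was -0.83 with male nuclei alone (adjusted p = 0.254) and -1.29 with limma (adjusted p = 0.24). It rose by 2.81 ± 0.36 to NB1 (adjusted p = 7.32e-09) and fell by 1.63 ± 0.23 from GCimm1 to GCimm2 (adjusted p = 2.89e-07). The later falls, by 0.89 ± 0.30 to GCyoung (adjusted p = 0.0258) and by 1.45 ± 0.35 to GCmat1 (adjusted p = 0.00601), were lost when libraries were left out. Without w4 the first was 1.98 (adjusted p = 0.184) and the second 0.16 (adjusted p = 1). Without w2 the fall to GCyoung was 0.66 (adjusted p = 0.281) and without w8 it was 0.80 (adjusted p = 0.0544). Astrocytes held 1 UMI, and the pooled RGL level was 15.99-fold higher (2.85 to 634). This difference was called (3.99 ± 1.06, adjusted p = 0.00715) but not without w1 (3.21, adjusted p = 0.093).

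**Figure D1:**
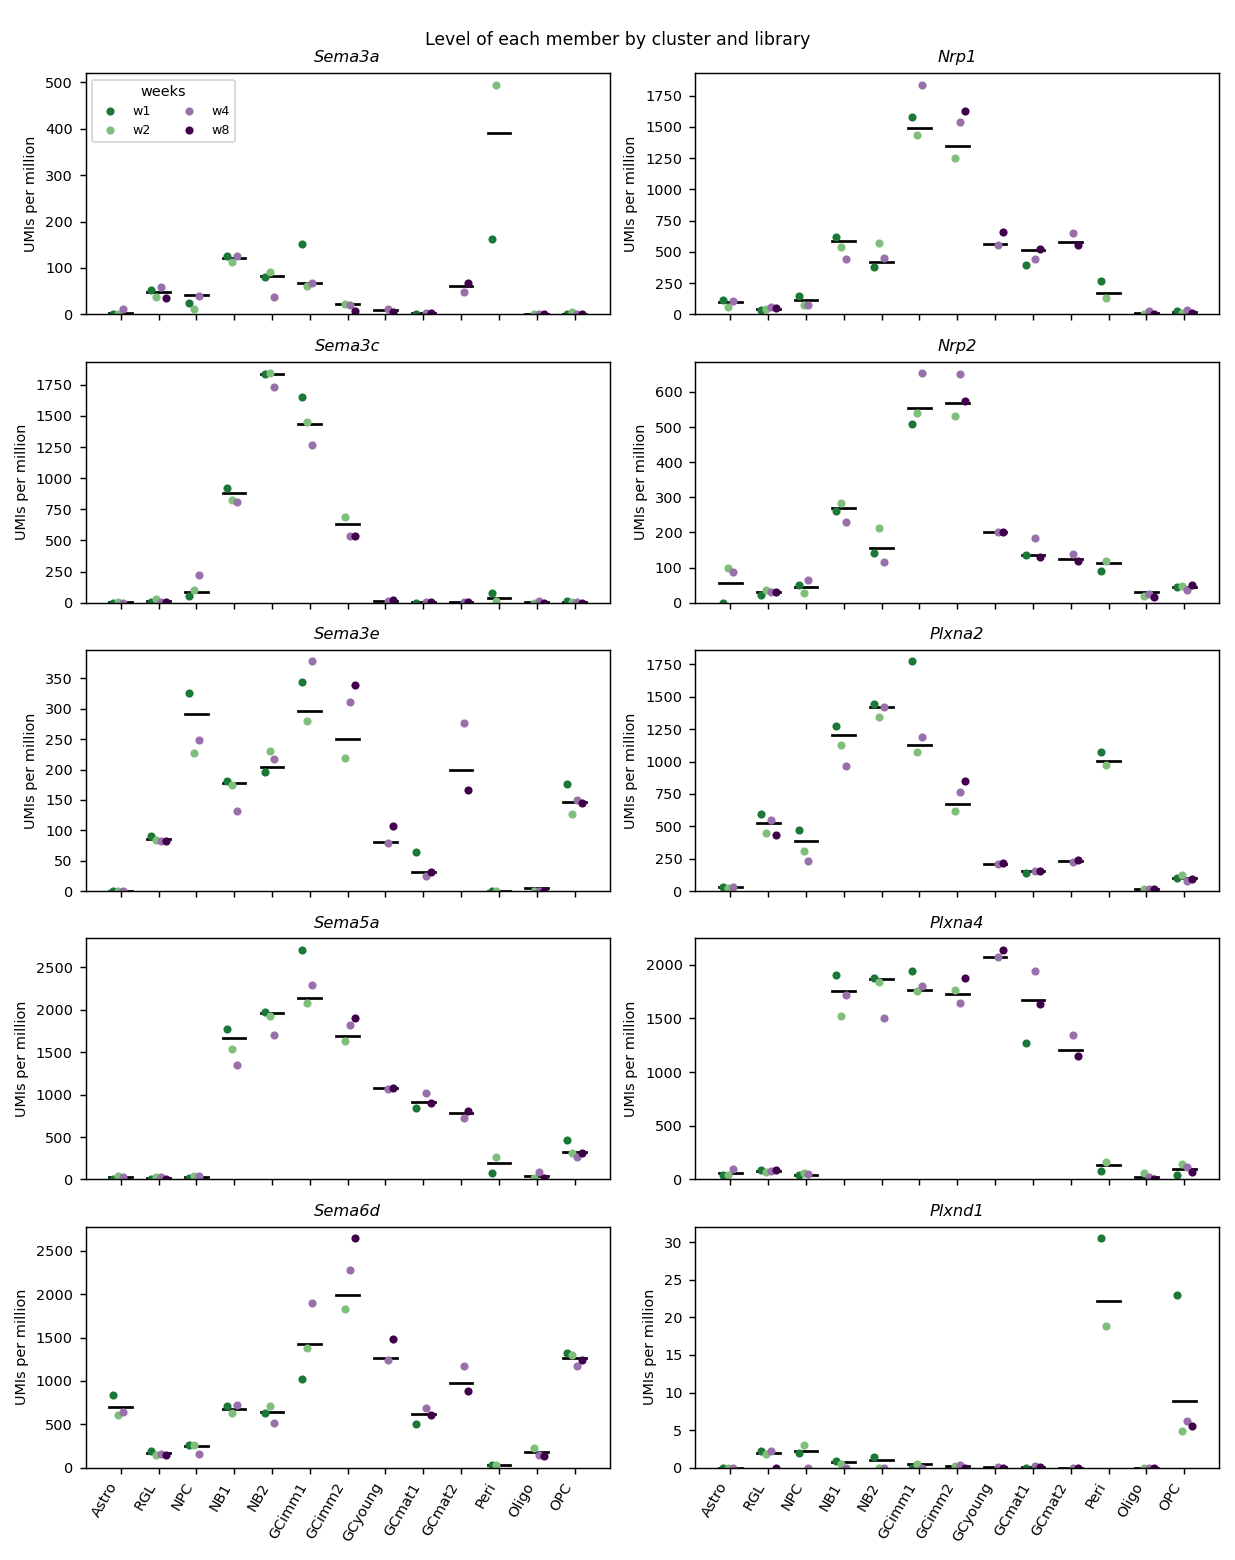
Level of each member in CPM (vertical axis, linear, a scale of its own for each gene) by cluster. Points are libraries with at least 10 nuclei, coloured by week, and black bars the pooled nuclei of a cluster. Sema3c, Nrp1 and Nrp2 were high from NB1 or GCimm1 to GCimm2, Plxna4 from NB1 on, and Plxnd1 was at most 2.19 in the pooled trajectory clusters.

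GCmat2, a small mature cluster of 60 nuclei in w4 and 149 in w8, differed from GCmat1 in the same class of ligands. It held 48.6 and 67.7 CPM of Sema3a in w4 and w8 against 2.50 and 3.52 in GCmat1, and 276 and 167 CPM of Sema3e against 25.5 and 31.3. Both were higher in both libraries. The edgeR difference was 4.08 ± 0.34 for Sema3a (adjusted p = 1.69e-13) and 2.71 ± 0.22 for Sema3e (adjusted p = 1.92e-13). Sema3c differed by -0.02 ± 0.78 (adjusted p = 1), with 8 UMIs in GCmat2. These were the only 2 members called of 9 tested, where 7.3% of all genes were called. With RLE in place of TMM factors 4 members were called, with 985 of 13513 genes called, against 986 with TMM factors.

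Sema5a, a membrane-bound semaphorin with thrombospondin repeats, was low until the neuroblast stage. RGL held 6.38 to 30.1 CPM over 4 libraries and NPC 20.0, 43.1 and 39.3 in w1, w2 and w4. NB1 held 1767, 1542 and 1351 in those libraries, and pooled NB1 was 54.3-fold above NPC (37.6 to 81.8). This was the largest change of the 9 tested members between NPC and NB1 (5.92 ± 0.36, adjusted p = 1.99e-19). GCimm1 held 2705, 2075 and 2285 and GCimm2 1629 to 1899. GCyoung, with 1071 and 1074 in w4 and w8, and GCmat1, with 845 to 1014, lay below, yet none of the later steps was called (-0.31 ± 0.24, -0.40 ± 0.26 and -0.24 ± 0.25 in order). By CPM, GCyoung held 0.588 and 0.566 of the GCimm2 level in w4 and w8, with intervals apart. That is a larger fall than the fitted -0.40, and the part of the scaling in this difference was not tested. The step from NB1 to GCimm1 was called (0.72 ± 0.23, adjusted p = 0.022) but not without w2 (0.77, adjusted p = 0.135), without w4 (0.62, adjusted p = 0.224) or with DESeq2 (adjusted p = 0.076).

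Sema6d, a transmembrane ligand of class A plexins, followed a later course. RGL held 200, 152, 163 and 150 CPM in w1, w2, w4 and w8. Astrocytes held 835, 605 and 639 in w1, w2 and w4, 4.09-fold above RGL when pooled (3.54 to 4.72), and Sema6d was the only tested member called lower in RGL than in astrocytes (-2.07 ± 0.25, adjusted p = 5.97e-09). NB1 held 711, 631 and 722, GCimm1 1021, 1374 and 1901, and GCimm2 1831, 2280 and 2645 in w2, w4 and w8. Values then stood at 1237 and 1484 in GCyoung and 506 to 692 in GCmat1. The step from GCimm2 to GCyoung was not called by edgeR (-0.45 ± 0.25, adjusted p = 0.232). By CPM, GCyoung held 0.5425 and 0.5611 of the GCimm2 level in w4 and w8, with intervals apart. OPC, at 1177 to 1327 in the 4 libraries, overlapped GCyoung in range. In the libraries that held both, OPC was lower, at 1177 against 1237 in w4 and 1242 against 1484 in w8. Sema6d rose from NPC to NB1 (1.72 ± 0.26, adjusted p = 2.73e-07) and from NB1 to GCimm1 (1.19 ± 0.22, adjusted p = 5.86e-05), and fell by 1.15 ± 0.25 from GCyoung to GCmat1 (adjusted p = 0.00137). That fall was 1.10 without w8 (adjusted p = 0.0733). The rise from GCimm1 to GCimm2 (0.72 ± 0.23, adjusted p = 0.0306) missed the threshold without w1, w2, w4 or w8 (0.54, 0.83, 0.83 and 0.69, adjusted p = 0.0695, 0.214, 0.0787 and 0.0552). By CPM, GCimm2 held 1.333 and 1.199 times the GCimm1 level in w2 and w4, the libraries with both clusters. Both ratios were under the 1.5-fold limit, so the call also rests on libraries with only one of these clusters or on the scaling. Their parts were not tested.

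The neuropilins, which bind class 3 ligands such as Sema3a and Sema3c, peaked together in immature granule cells. Nrp1 held 1582, 1433 and 1837 CPM in GCimm1 of w1, w2 and w4, and 1254, 1538 and 1625 in GCimm2 of w2, w4 and w8. All of these exceeded every value of NB1 (622, 537 and 439 in w1, w2 and w4) and of GCyoung (555 and 657 in w4 and w8). RGL was lowest among trajectory clusters, at 37.8 to 62.6. Nrp2 held 508, 541 and 654 in GCimm1 and 531, 652 and 573 in GCimm2, against 262, 285 and 229 in NB1 and 202 and 201 in GCyoung. The ranges of GCimm1 and GCimm2 overlapped for both genes. The edgeR change between them was -0.09 ± 0.21 for Nrp1 (adjusted p = 0.894) and 0.13 ± 0.19 for Nrp2 (adjusted p = 0.803), so the test set neither stage above the other. In the shared libraries w2 and w4, GCimm2 held 0.875 and 0.837 of the GCimm1 level of Nrp1, with intervals apart. For Nrp2 it held 0.981 and 0.997, with overlapping intervals.

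In edgeR Nrp1 rose by 1.02 ± 0.29 from RGL to NPC (adjusted p = 0.0049), by 2.49 ± 0.27 to NB1 (adjusted p = 4.48e-11) and by 1.69 ± 0.21 to GCimm1 (adjusted p = 8.07e-09). The first of these rests on w1, as it was 0.30 without that library (adjusted p = 0.642). Nrp2 rose by 2.80 ± 0.30 from NPC to NB1 (adjusted p = 4.53e-11) and by 1.21 ± 0.19 to GCimm1 (adjusted p = 1.43e-06). From GCimm2 to GCyoung Nrp1 fell by 1.05 ± 0.24 (adjusted p = 0.000804) and Nrp2 by 1.22 ± 0.22 (adjusted p = 2.99e-05). Without w4 the fall of Nrp1 was 1.07 (adjusted p = 0.0997). With limma the falls to GCyoung were 1.05 for Nrp1 (adjusted p = 0.117) and 1.17 for Nrp2 (adjusted p = 0.814), both not called. The rise of Nrp2 from NB1 to GCimm1 was 1.26 with limma, also not called. Neither gene changed by the edgeR test from GCyoung to GCmat1 (-0.37 ± 0.23 and -0.35 ± 0.22). In contrast to the ligand Sema3c, Nrp1 kept 397 to 524 CPM in GCmat1.

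The plexins, which carry the signal into the cell, differed from each other in time. Plxna2 was already high in RGL, at 597, 449, 549 and 434 CPM in w1, w2, w4 and w8, against 26.7 to 32.5 in astrocytes, a 17.6-fold pooled difference (9.58 to 36.8). It rose through NB1 (1276, 1128 and 963 in w1, w2 and w4) and stood at 1441, 1341 and 1422 in NB2. GCimm1 held 1774, 1078 and 1193, with the w1 pool of 129 nuclei well above the others, and GCimm2 618, 767 and 853 in w2, w4 and w8. GCyoung held 213 and 215 and GCmat1 141 to 159. Pericytes also held 1078 in w1 and 976 in w2.

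The difference in Plxna2 between astrocytes and RGL was 4.11 ± 0.38 (edgeR adjusted p = 1.39e-12). It fell by 0.84 ± 0.20 from RGL to NPC (adjusted p = 0.000945), although by 0.57 without w4 (adjusted p = 0.108), and rose by 1.92 ± 0.21 to NB1 (adjusted p = 8.36e-11). It fell by 1.51 ± 0.23 from GCimm2 to GCyoung (adjusted p = 5.27e-07). The smaller fall from GCimm1 to GCimm2 (-0.63 ± 0.20, adjusted p = 0.0252) was lost without w1 (-0.54, under the fold limit), w2 (-0.61, adjusted p = 0.389) or w4 (-0.79, adjusted p = 0.104).

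Plxna4, a plexin that pairs with Nrp1 for Sema3a, switched on once and stayed. RGL held 71.4 to 89.3 CPM and NPC 38.1, 58.5 and 52.4 in w1, w2 and w4, a fall of 1.07 ± 0.34 (adjusted p = 0.0127) that was 0.82 without w1 (adjusted p = 0.126). NB1 held 1901, 1526 and 1714, 38.1-fold above NPC when pooled (28.2 to 52.9), and the edgeR change was 5.41 ± 0.32 (adjusted p = 6.58e-20). From there to maturity no step of Plxna4 was called: the fitted changes lay between -0.43 and 0.53, and pooled levels between 1203 in GCmat2 and 2075 in GCyoung. The library ranges of NB2, GCimm1, NB1, GCimm2 and GCmat1 each overlapped the next. GCyoung, at 2070 and 2138 in w4 and w8, stood above every library of these clusters. GCmat2 held 1346 and 1145 in w4 and w8 against 1937 and 1638 in GCmat1, with intervals apart.

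Plxnd1, the direct receptor of Sema3e, was barely detected. All clustered nuclei together held 54 UMIs, in 0.362% of nuclei. The pooled level was 1.97 CPM in RGL (1.02 to 3.44), 0.734 in NB1, 0.454 in GCimm1 and 0.116 in GCyoung, and it was 22.1 in pericytes (8.89 to 45.6) and 8.89 in OPC (3.26 to 19.3). No UMI was found in GCmat2, which allows up to 1.92 CPM. The pooled level in GCimm1 was 0.231 of that in RGL (counting interval 0.0710 to 0.664, 6 and 12 UMIs), and the intervals of GCyoung (0.0140 to 0.417) and GCmat1 (0.0556 to 0.400) lay below that of RGL. These few UMIs gave no test over libraries. Plxnd1 was also the shortest gene of the group, and the part of gene length in its level was not tested.

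Over the trajectory the steps differed in how many members moved. From astrocytes to RGL 4 of 9 tested members were called (3 higher and 1 lower), with 9.58% of all genes called. From RGL to NPC 6 were called (3 higher and 3 lower), where 29.5% of all genes were. From NPC to NB1 8 rose and none fell, against 29.3% of all genes called in either direction, and only Sema3e was not called. From NB1 to NB2 Sema3c alone was called, with 2.94% of all genes. From NB1 to GCimm1 6 rose (12.5% of all genes called). From GCimm1 to GCimm2 1 rose and 3 fell (9.43%), and 2 were called without w1, without w2 or without w4. Over all genes 1202 of 13519, 410 of 12503 and 997 of 13930 were then called, against 1274 of 13513 with all libraries. From GCimm2 to GCyoung 6 fell and none rose (18.9%): Sema3a, Sema3c, Sema3e, Nrp1, Nrp2 and Plxna2. Without w4, which holds 1979 of the 2176 GCyoung nuclei, 3 were called at that step. Calls over all genes also fell there without w4, to 487 of 13930, against 2553 of 13513 with all libraries. From GCyoung to GCmat1 the 4 ligands Sema3a, Sema3c, Sema3e and Sema6d fell (3.85%), and 2 were called without w8. Without w8, 219 of 14612 genes were called at this step, against 520 of 13513 with all libraries. Over all genes the balance of higher and lower calls moved with the scaling: from astrocytes to RGL 644 genes were higher and 651 lower with TMM factors, and 455 and 854 with RLE factors, with a median change of 0.27 and 0.07. No call of a member was lost with RLE factors except the fall of Plxna2 from GCimm1 to GCimm2 (-0.58, under the fold limit).

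**Figure D2:**
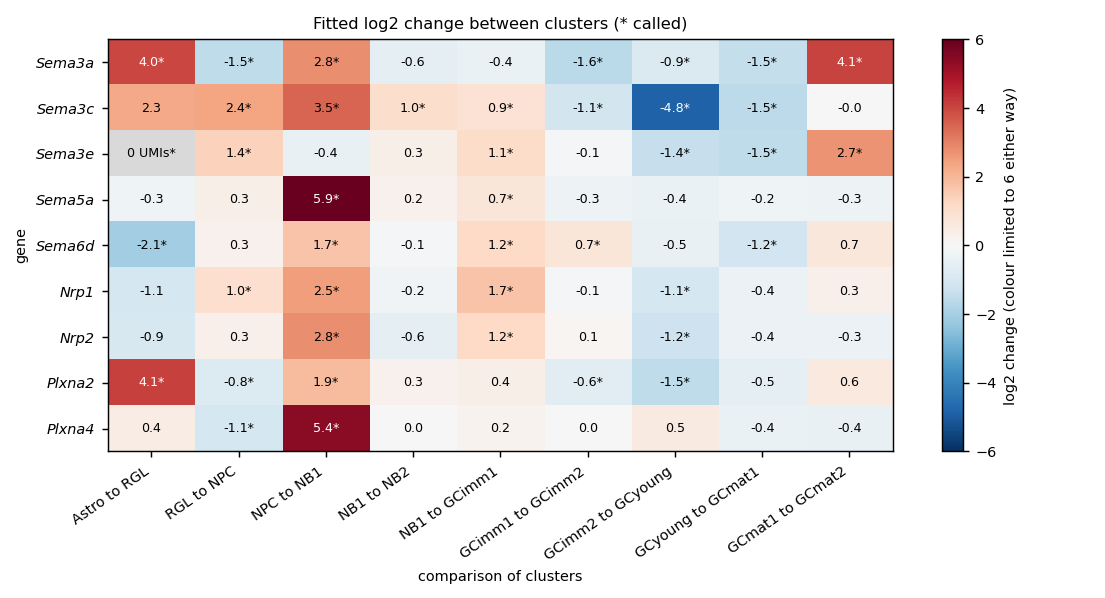
Fitted log2 change (colour and number) of the 9 tested members in the 9 comparisons of clusters. An asterisk marks a call, and grey with 0 UMIs marks Sema3e, for which astrocytes held no UMI. The column from NPC to NB1 holds 8 calls, all rises, and that from GCimm2 to GCyoung 6, all falls.

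Along the deposited pseudo-time, an ordering of 13635 nuclei from RGL to mature cells in arbitrary units, the members did not all peak at the same place over pooled nuclei. In bins 2 units wide, Sema3e was highest at 6 to 8 (385 CPM, 328 to 448, mostly NPC nuclei) and again at 16 to 18 (311), with 115 between them at 10 to 12. Within libraries both maxima were close, at 429 and 418 in w1 and at 309 and 295 in w2, with overlapping intervals, and the dip between them stood at 117 and 115. Sema3a (116), Sema5a (2378) and Plxna2 (1437) were highest at 14 to 16, Sema3c (1479) and Nrp1 (1550) at 16 to 18, Nrp2 (593) at 18 to 20, Sema6d (1922) at 20 to 22 and Plxna4 (2156) at 24 to 26. Sema3c had a first maximum of 1274 at 10 to 12, when Nrp1 stood at 475 and Nrp2 at 122. It dropped from 353 at 20 to 22 to 18.9 at 24 to 26, where Nrp1 still held 828. These positions come from the same expression values as the clusters and carry no test.

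**Figure D3:**
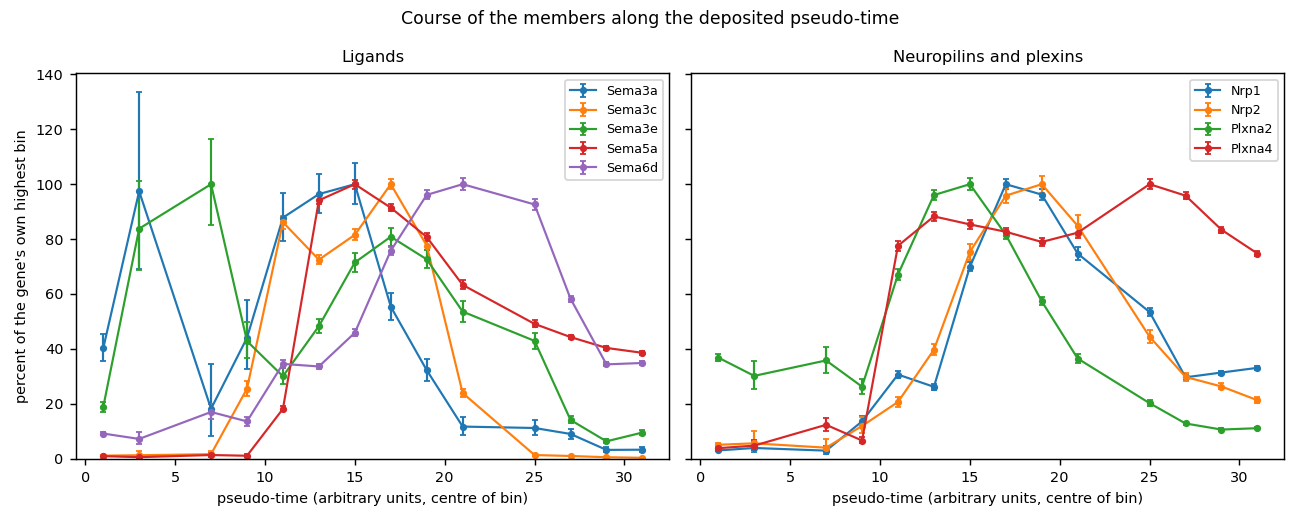
Level of each ligand (left) and receptor (right) in bins of pseudo-time 2 units wide with at least 20 nuclei, as percent of the gene's own highest bin. Bars are exact Poisson intervals at 95%. Sema3e has 2 maxima, Sema3c is near 0 after 24, Sema6d peaks last among the ligands, and Plxna4 stays over 70% from 10 on.

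Detection in single nuclei was compared after each nucleus was thinned to 2000 UMIs, which left out 141 shallower nuclei. A UMI of a neuropilin and of a plexin was found together in 7.36% of RGL nuclei, 9.22% of NPC, 69.8% of NB1, 54.3% of NB2, 96.6% of GCimm1, 94.4% of GCimm2, 71.8% of GCyoung and 65.6% of GCmat1. Oligodendrocytes, which served as background, had 0 of 45 (up to 7.87%, Clopper-Pearson). A class 3 ligand was found in 80.65% of NB1, 96.2% of NB2, 93.6% of GCimm1 and 73.7% of GCimm2 nuclei, and in 18.2% of GCyoung and 6.41% of GCmat1. Oligodendrocytes had 1 of 45 (2.22%, up to 11.8%), so the share in GCmat1 (5.60 to 7.29) is not above what this background allows. Astrocytes had 0 of 67 (up to 5.36%), which lies below the GCmat1 interval, whereas pericytes (46.7%) and OPC (24.4%) had higher shares. Pooled Sema3e in GCmat1, at 31.04 CPM (29.05 to 33.13), also lay above the upper limit in oligodendrocytes (25.36). The ligand share of GCmat1 was thus above background or not depending on the cluster chosen. A class 3 ligand, a neuropilin and a plexin together were found in 90.5% of GCimm1 nuclei (89.2 to 91.6) and 3.99% of GCmat1 (3.36 to 4.71). Oligodendrocytes had 0 of 45 (up to 7.87%). Sema3e, which can bind plexin D1 directly, counts as a ligand here. In GCmat1 a UMI of Sema3e was found in 4.80% of nuclei, of Sema3c in 0.894% and of Sema3a in 0.775%. These shares make no allowance for gene length, so they do not rank the ligands. Such nuclei need not hold a ligand with its own receptors. The shares of RGL for neuropilin with plexin and of GCmat1 for ligand, neuropilin and plexin are thus not above what the oligodendrocyte background allows. The interval of NPC for neuropilin with plexin (5.65 to 14.0) also reaches below its limit of 7.87%.

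**Figure D4:**
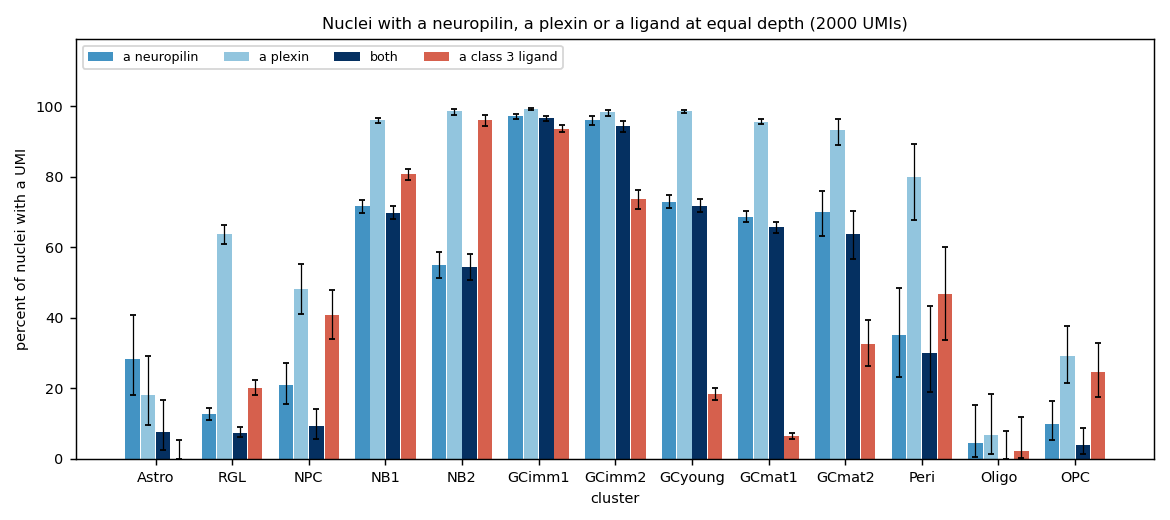
Percent of nuclei of each cluster with at least 1 UMI of a neuropilin, of a plexin, of both, or of a class 3 ligand (Sema3a, Sema3c or Sema3e), each nucleus thinned to 2000 UMIs. Bars of error are Clopper-Pearson intervals at 95%. Plexins stay over 90% from NB1 on, while ligands fall from 93.6% in GCimm1 to 6.41% in GCmat1.

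For 9 pairs of members the share of nuclei with both was set beside the product of their separate shares, within each cluster and library of at least 50 nuclei. The product lay within the counting interval of the observed share in 196 of 198 cases, among them all 88 of a neuropilin with a plexin and all 44 of Sema3c with a neuropilin. Of the 88, 46 were above the product and the others not, with 12 of 12 above it in NB1 and 1 of 8 in GCyoung. In NB1 the remaining pairs (Nrp1 with Nrp2, Plxna2 with Plxna4 and Sema3c with Sema3e) were above it in 8 of 9 cases, so the direction there was not particular to neuropilin with plexin. Sema3c with a neuropilin was above it in 16 of 44 cases. Nrp1 with Nrp2 was above it in 15 of 22, of which 13 were within their intervals, and the 2 outside were NB1 of w2 (24.7% observed, 21.9% by the product) and NB2 of w1 (11.5% and 8.83%). These counts are a description: the pairs share nuclei, and where a plexin is found in nearly every nucleus the joint share can hardly leave its interval.

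Within a cluster, levels also moved between weeks, but each week is 1 pool, so week and pool cannot be told apart, and the pools differed in depth and in the share of male nuclei. Intervals of neighbouring weeks were apart in 61 of 250 pairs. Sema6d in GCimm1 stood at 1021, 1374 and 1901 CPM in w1, w2 and w4, with intervals apart at each step, and in GCimm2 at 1831, 2280 and 2645 in w2, w4 and w8. Nrp2 in GCmat1 stood at 184 in w4 and 130 in w8, and Nrp1 there at 446 and 524. In NB1, Sema5a stood at 1767, 1542 and 1351 and Plxna2 at 1276, 1128 and 963 in w1, w2 and w4.

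Other genes of the family and its signalling partners were counted from lists of 15 further semaphorins, 6 further receptors and 34 co-receptors and signalling genes, without the members. From NPC to NB1, where 29.3% of all genes were called, 6 of 11 tested semaphorins rose and 3 fell, with a median change of 2.22 against 0.06 over all genes. Of 5 tested receptors 1 rose and none fell (median 0.16). Of 30 signalling genes 9 rose and 2 fell, or 36.7% (median 0.33), a share near that of all genes. Chl1, an L1-family co-receptor for class 3 semaphorins, rose by 5.25 ± 0.33 (adjusted p = 6.74e-19), and Dpysl4, a collapsin response mediator, by 4.04 ± 0.65 (adjusted p = 1.33e-06). Sema6a, in contrast, fell by 1.62 ± 0.23 (adjusted p = 8.74e-08).

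From GCimm2 to GCyoung, where 18.9% of all genes were called, 5 of the 11 further semaphorins fell and 1, Sema5b, rose (1.58 ± 0.27, adjusted p = 6.57e-06), and 3 of 5 further receptors fell and none rose. The medians were -0.54 and -1.30 against 0.03 over all genes. Plxnb1, the receptor of class 4 semaphorins, fell by 3.09 ± 0.44 (adjusted p = 1.71e-07) and Sema4g by 2.66 ± 0.24 (adjusted p = 6.88e-13). Of the signalling genes 2 rose and 6 fell (26.7%), and Mical2, an oxidase that acts on actin, rose by 1.45 ± 0.21 (adjusted p = 1.64e-07). From GCyoung to GCmat1, where 3.85% of all genes were called, 4 of the 11 further semaphorins fell and none rose (median -0.40), and 5 of 30 signalling genes fell. Of the 5 further receptors 0 were called by edgeR, and 1 had an unadjusted p under 0.05 (median -0.64). Between astrocytes and RGL, Sema5b (4.17 ± 0.58, adjusted p = 2.37e-07) and Plxnc1 (1.99 ± 0.37, adjusted p = 5.71e-05) were higher in RGL, and Plxnc1 fell by 2.24 ± 0.25 on the way to NPC (adjusted p = 1.14e-10).

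The genes most like each member over the 29 sums were found by Pearson's r of log2(CPM + 1), as a description, since the sums share libraries and cell types. For Sema3c they were Kcnh8 (r = 0.955), Slc17a6 (0.9501) and Cep170 (0.941). For Sema5a they were Hecw1 (0.987), Rbfox1 (0.985) and Ank3 (0.980), and for Plxna4 Ank3 (0.981), Jakmip3 (0.980) and Tmem63c (0.976). Nrp1 was closest to Cacna1d (0.962), Nrp2 to Atp8a2 (0.918), Plxna2 to Mest (0.946), Sema3e to Cars2 (0.945), Sema6d to Arpp21 (0.901) and Sema3a to March8 (0.859).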

How the data were processed

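Whole UMI counts per gene and nucleus were deposited by the authors for 4 libraries. They had aligned reads with STARsolo 2.7.4a to GRCm38 (mm10), counted exons and introns, left out reads with several matches, and removed doublets, poor nuclei and a group of w4 nuclei taken for a possible outlier. A second deposited table gives log2 expression (counts over scran size factors, plus 1), cluster and pseudo-time of 14367 nuclei. Of 17046 barcodes, 2679 without a cluster there were used only for the flagged results. Of its 13353 genes, 5 members were matched. The authors kept features by the share of nuclei in which they were detected. Members without a match were found in 81.6% (Plxna2) to 88.0% (Plxna4) of nuclei, or in 0.362% (Plxnd1). No column was left unused (0).

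Here, raw UMIs were summed per library and cluster. Sums of at least 10 nuclei (29, over trajectory clusters and astrocytes) were fitted with edgeR 4.0.16 in R 4.3.3 (filterByExpr, TMM, glmQLFit and glmQLFTest, cluster and library as terms, 16 residual degrees of freedom) and tested on simulated data. All p-values were adjusted by Benjamini-Hochberg over 13513 genes. Shares and levels, with 95% intervals and 3 counts as the limit of a count of 0, used Python 3.11.15 and scipy 1.17.1. Library depth was 13227971 to 28595331 UMIs. With 1 pool per week, no test was made between weeks. Alternatives were DESeq2 1.42.0, limma 3.58.1, RLE factors, no library term, no filter, other minima, thinning, 1 sex alone and each library left out. All members were named. From the other lists, at most the 3 largest called changes in each direction per comparison could be named (at least 100 UMIs), and the 3 genes most like each member (at least 1000 UMIs). The members and lists were chosen with earlier results of these data known. No protein sequences were used here. The gene that drives Cre is not reported here.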

Additional observations from a re-analysis of the deposited data

Results flagged for a closer look

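In 19 groups with 4 libraries of at least 10 nuclei (RGL and OPC), 2 values stood apart from the other 3 by Dixon's criterion, which chance meets in about 1 of 20 groups. Both concern Plxnd1, at very low counts. In OPC the w1 library held 23.0 CPM, from 3 UMIs, against 4.87 to 6.26 in the others. In RGL the w8 library held 0 CPM, with 83 nuclei, against 1.88 to 2.21. A count of 0 there allows up to 9.56 CPM, which is above the other libraries, so at this depth the value cannot be told from them.

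The 2679 barcodes without a deposited cluster, 1628 of them in w4, also held UMIs of all 10 members above the 0.127 CPM that a count of 0 allows. Sema3e stood at 301 CPM there, 2.31 times its level in the clustered nuclei, Sema3a at 55.9 (1.47 times), Plxnd1 at 1.66 (2.82 times) and Nrp1 at 789 (1.14 times). Plxna4, at 1571, was close to the clustered level (0.966 times). The other members were lower than in the clustered nuclei: Sema3c at 213 CPM, Sema5a at 734, Sema6d at 611, Nrp2 at 181 and Plxna2 at 337. The pooled values rest mostly on w4. Sema3e there stood at 3.23 times the clustered level (376 CPM), and at 1.06, 0.889 and 1.35 times in w1, w2 and w8. Sema3a stood at 3.08 times in w4 and at 0.906, 0.795 and 1.45 times in w1, w2 and w8, and Nrp1 at 1.30 times in w4 and at 0.781, 0.823 and 1.04 times. The authors had left out a large group of w4 nuclei as a possible outlier, beside doublets and poor nuclei, and which of these barcodes belong to that group was not tested.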

How the results depend on the processing

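No change of a member reversed its direction where it had been called, under any of the 15 alternatives. Of the 41 calls, 21 were kept in all alternatives that could be run and 20 were lost in at least 1, of which 13 were lost when some library was left out. Among recomputed changes 75 lost a call, 19 gained one and 1112 stayed on the same side. The cause was not tested. The number of members called moved by more than 1.5 times as follows. From NB1 to NB2 (1 call) it was 0 with DESeq2, with limma and with female nuclei alone, and 2 with no filter and with thinning. From NB1 to GCimm1 (6) it was 3 with limma. From GCimm1 to GCimm2 (4) it was 2 with DESeq2, with female nuclei alone and with a fold change of at least 2, 1 with male nuclei alone, 0 with limma, and 2 to 3 with 1 library left out. From GCimm2 to GCyoung (6) it was 3 with limma, and 3 to 7 with 1 library left out. From GCyoung to GCmat1 (4) it was 2 with DESeq2 and with thinning, 1 with male nuclei alone and with limma, and 2 to 4 with 1 library left out. From GCmat1 to GCmat2 (2) it was 4 with RLE factors. Over all genes, calls from NB1 to NB2 were 61 of 13627 with female nuclei alone. They were 451 of 26804 with no filter and 304 of 9194 with thinning. From GCimm1 to GCimm2 they were 1022 of 13627 with female and 568 of 12463 with male nuclei. At a fold change of at least 2 that step had 752 of 13513. From GCyoung to GCmat1 they were 268 of 9194 with thinning and 213 of 12463 with male nuclei. With RLE factors 985 of 13513 were called from GCmat1 to GCmat2. Over all genes, the count from GCimm2 to GCyoung was 2553, 1834 with DESeq2, 289 with limma and 487 without w4, and from GCyoung to GCmat1 520, 229 with DESeq2, 6 with limma, 216 without w4 and 219 without w8. With 1 library left out it also moved from 1295 to 813 (w1) and 818 (w2) from astrocytes to RGL, from 3964 to 2550 (w1) from NPC to NB1, from 397 to 102 (w1) and 248 (w2) from NB1 to NB2, from 1691 to 780 (w2) from NB1 to GCimm1, from 1274 to 410 (w2) from GCimm1 to GCimm2, and from 986 to 567 (w4) and 412 (w8) from GCmat1 to GCmat2. From astrocytes to RGL limma made 2956 calls, 2458 higher and 498 lower (edgeR 644 and 651). In the other comparisons with a ratio over 1.5 limma made fewer calls than edgeR, 6 to 2229, and DESeq2 made 194 from NB1 to NB2, 813 from GCimm1 to GCimm2 and 229 from GCyoung to GCmat1. DESeq2 moved the split from GCimm2 to GCyoung to 682 higher and 1152 lower (edgeR 1253 and 1300). From GCmat1 to GCmat2 it was 376 and 303 (edgeR 407 and 579), and from astrocytes to RGL 318 and 890 (edgeR 644 and 651). It was 1413 and 2112 (edgeR 1986 and 1978) from NPC to NB1, and 56 and 173 (edgeR 216 and 304) from GCyoung to GCmat1. The wider lists were not recomputed. With at least 30 nuclei per sum no astrocyte sum was left, so that comparison could not be run. The trajectory cluster with the highest level was the same in all available measures for 8 of 10 members. For Plxnd1 it was NPC, on 2 UMIs. Mean deposited log2 expression was available for 5 members only. By that measure the highest cluster was GCimm2 in place of GCimm1 for Sema3e and Nrp1, and unchanged for Sema3a, Sema3c and Nrp2. Fitted changes also drew on libraries that did not hold both clusters, so they were not comparisons within libraries alone. Library is a term of the fit, which allows for differences between libraries. Without that term 3 calls were lost: Sema5a from NB1 to GCimm1 (adjusted p = 0.0509), Sema6d from GCimm1 to GCimm2 (adjusted p = 0.0533) and Sema3a from GCimm2 to GCyoung (adjusted p = 0.097). Depth limits Plxnd1 and all values in astrocytes, NPC of w8, pericytes and oligodendrocytes.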
